A study of Mus musculus with 18 samples.

Results

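The genes described here are the synaptic vesicle release genes of the mouse dorsal spinal cord, taken by name: the synaptotagmins, syntaxins, VAMPs, SNAP proteins, synapsins, SV2 proteins, RIM proteins, complexins, Rab3 GTPases and Munc13 factors. Loci that carried a single gene name of these families in all 3 expression tables were kept, and a name with several loci was represented by the locus with the highest mean level over the 6 groups. This gave 59 genes among 18432 single gene names, on 87 loci in all, with 40 genes on 1 locus and 19 on several. Of the 59 genes, 56 had a mean of at least 1 FPKM (sequenced fragments scaled to transcript length and library size), as did 14363 of all names. The 3 genes below that level were Cplx3 at a mean of 0.242 FPKM, Syt15 at 0.642 FPKM and Stx11 at 0.668 FPKM, and no gene was listed at 0 in any group.

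A nerve terminal releases transmitter when a vesicle fuses with the plasma membrane. The vesicle SNARE (a VAMP) zips together with the plasma membrane SNAREs (a syntaxin and a SNAP protein), Munc13 and RIM proteins with Rab3 prepare docked vesicles for fusion, complexins hold the assembled SNAREs ready, and a synaptotagmin starts fusion when calcium enters. In the spinal dorsal horn this machinery serves the terminals of primary afferents, local interneurons and descending fibres through which nociceptive input is relayed. Family members outside the terminal carry out membrane traffic in all cells.

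RNA was measured in the dorsal spinal cord (lumbar segments L3 to L5) of 18 C57BL/6 mice (C57BL/6N in the study's methods) aged 3 months, 3 in each of 6 groups. All mice had received a recombinant adeno-associated virus (rAAV) into the dorsal horn on both sides at least 3 weeks earlier: rAAV-LacZ, which encodes the bacterial enzyme β-galactosidase as the control, rAAV-HDAC4 wt, which encodes histone deacetylase 4, a repressor of transcription that leaves the nucleus upon synaptic activity, or rAAV-HDAC4 3SA, a mutant that stays in the nucleus. For each vector, 1 group had received complete Freund's adjuvant (CFA, which causes lasting inflammation) into the hindpaw and 1 group saline, 24 h before tissue was taken. The comparison of CFA with saline under each vector asks how inflammation changes expression in the spinal cord, and its reading across vectors how HDAC4 alters that response. All transgenes carried a Flag tag. The vectors were aimed at neurons of the dorsal horn, and primary afferents showed no infection according to the study. The promoter behind the transgenes is not given in the sources used here, and the study used adult male or female mice, with males in most of the work, without a label of sex for each. Hdac4 itself stood at 7.41 and 7.72 FPKM under LacZ after saline and CFA, 10.1 and 10.8 under HDAC4 wt, and 8.86 and 8.81 under HDAC4 3SA, and whether vector transcripts were counted there is not given in the sources used here. Each group value was 1 estimate over its 3 mice, so no spread between mice could be computed, no test was run, and every difference below is a description of these 6 values. In a bulk sample, fewer cells of a type and less RNA per cell cannot be told apart.

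Snap25 was the most abundant release gene in all 6 groups, and the same few genes filled the next places everywhere. Snap25, the SNARE of the plasma membrane that botulinum toxin A cuts, stood at 1227 and 1135 FPKM under LacZ after saline and CFA, 795 and 719 under HDAC4 wt, and 861 and 646 under HDAC4 3SA. Vamp1, Cplx1, Rab3a and Vamp2 filled places 2 to 5 in every group, in varying order. Syt11 was 6th in all 6 groups. Of the 59 genes, 15 had a mean of at least 50 FPKM and 50 a mean of at least 5 FPKM. The lowest of the 56 genes by the mean over the groups, Syt14, lay at 2.06 and 2.08 FPKM under LacZ after saline and CFA, 2.22 and 1.86 under HDAC4 wt, and 2.23 and 1.86 under HDAC4 3SA. Stx6 lay below it in the LacZ and HDAC4 wt groups, as did Rab3d in both LacZ groups and Syt17 under LacZ after CFA. Within some families 1 gene took most of the level: Cplx1 held 84.6% to 89.1% of the summed complexin FPKM over the 6 groups, and Rab3a 78.1% to 81.4% of that of the Rab3 genes. Other families were spread more widely. Vamp1 held 40.6% to 57.9% of the summed VAMP FPKM and Unc13c 44.7% to 48.9% of that of the Munc13 genes. Syt11 held 32.1% to 36.0% of the summed synaptotagmin FPKM.

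**Figure D1:**
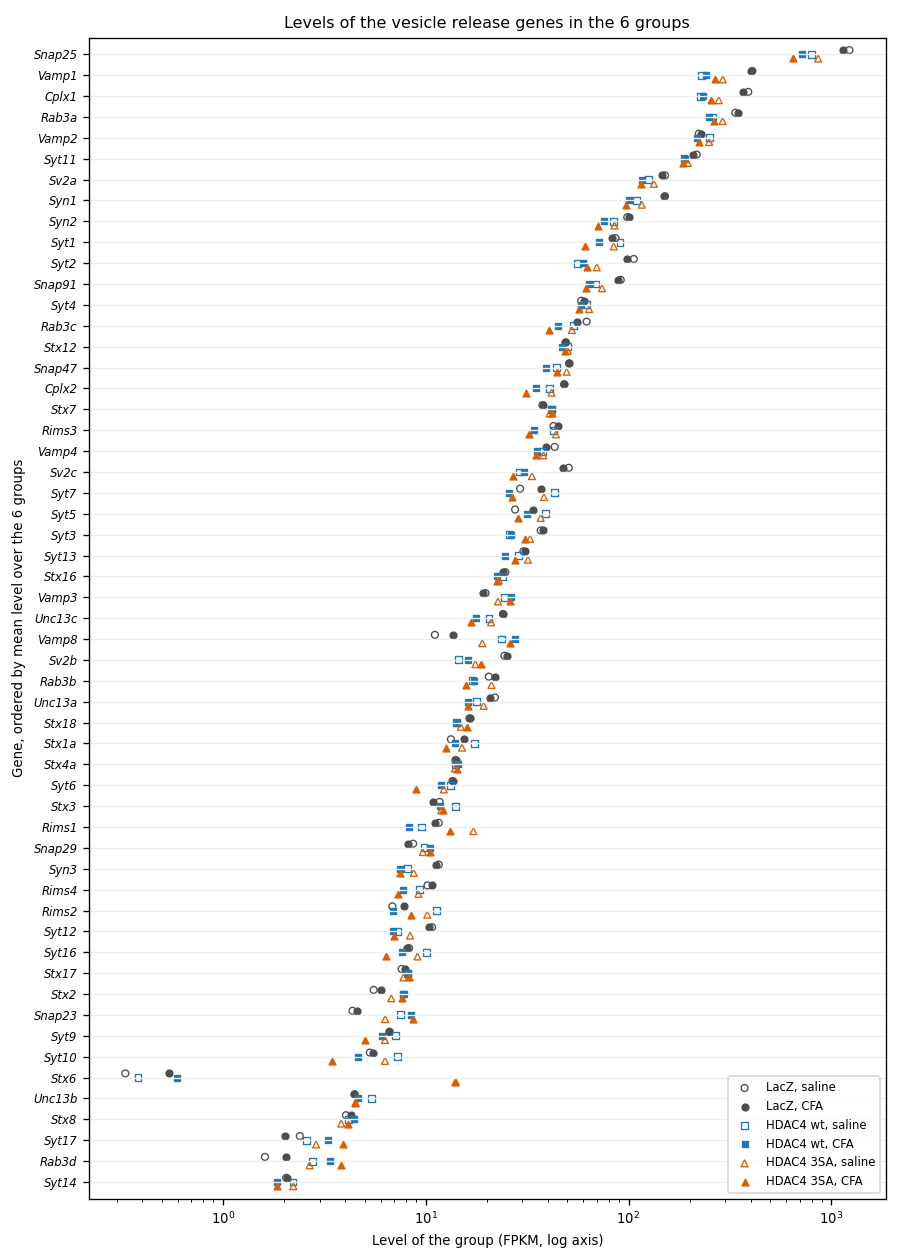
FPKM of 55 release genes whose mean reached 1 FPKM, in the 6 groups, on a log axis. Each point is 1 group estimate over 3 mice (open symbols saline, filled symbols CFA, shape and colour the vector). Snap25 lies highest in every group, between 646 and 1227 FPKM, and Stx6 is the gene whose level in the HDAC4 3SA table, 14.1 and 13.9 FPKM, lies far from its level under the other vectors.

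After CFA the release genes were almost level with saline under LacZ, lower under HDAC4 wt and lower still under HDAC4 3SA. Changes are given as log2 of CFA over saline after 0.1 FPKM was added to each value. The median of the 56 genes was 0.00 under LacZ, -0.10 under HDAC4 wt and -0.19 under HDAC4 3SA, beside 0.01, 0.00 and 0.01 over all 14363 names. In LacZ mice 27 of the 56 genes were lower after CFA than after saline (48.2%, beside 46.3% of all names). In HDAC4 wt mice 38 were lower (67.9%, beside 48.6%), and under HDAC4 3SA 42 (75.0%, beside 47.5%). Under both HDAC4 vectors 34 genes were lower (60.7%, beside 33.8% of all names). All 15 genes of at least 50 FPKM were lower after CFA under HDAC4 3SA, with a median log2 change of -0.21, whereas 11 of these 15 were lower under LacZ, with a median of -0.05, and 11 under HDAC4 wt, with a median of -0.11. The share of all names of at least 50 FPKM was not computed, so these counts have no background at that level.

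Most of these differences were small. A gene was called risen or fallen when its log2 change passed 0.5 in either direction, which is a ratio above 1.41 or below 0.707. This is the fold limit of the study, whose calls also required a significant adjusted p-value that was not applied here. In LacZ mice 1 gene rose (beside 3.61% of all names) and 0 fell (beside 1.78%). In HDAC4 wt mice 1 rose (beside 4.21%) and 3 fell (beside 2.42%). In HDAC4 3SA mice 0 rose (beside 7.92%) and 3 fell (beside 2.89%). At a smaller limit of 0.2, the counts of genes below it were 1 under LacZ (beside 5.72%), 18 under HDAC4 wt (32.1%, beside 10.6%) and 28 under HDAC4 3SA (50%, beside 14.9%). Above it were 6 genes under LacZ (10.7%, beside 13.0%), 4 under HDAC4 wt (7.14%, beside 15.0%) and 4 under HDAC4 3SA (7.14%, beside 21.2%). The genes that fell were 5.36% of the 56 under either HDAC4 vector, and the wider gap from all names lay in the many changes between -0.2 and -0.5 under these vectors.

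**Figure D2:**
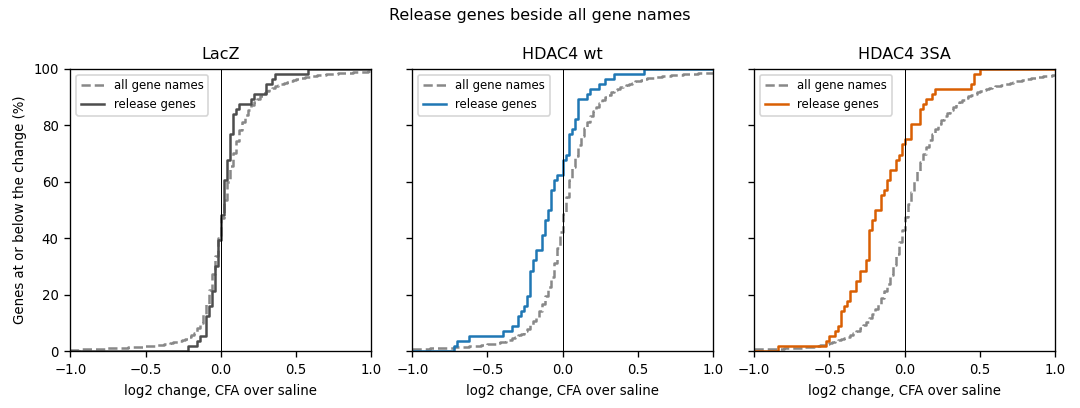
Share of genes (y axis, %) at or below each log2 change of CFA over saline (x axis) for the 56 release genes (solid line) and all 14363 names (dashed line), 1 panel per vector. The lines run close together under LacZ, and the solid line lies to the left in both HDAC4 panels, with medians of -0.10 and -0.19 against 0.00 and 0.01.

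The genes that were lower under HDAC4 wt tended to be those that were lower under HDAC4 3SA, groups that share no animals. Across the 54 release genes whose locus lay at the same place in all tables, the log2 changes under both vectors had a Pearson r of 0.76 and a Spearman rho of 0.75. Across 14220 names the values were 0.06 and 0.54, so genes in general also agreed by rank. Over all 14363 names the changes ran from -14.3 to 17.3 under HDAC4 wt and from -14.4 to 13.6 under HDAC4 3SA. The Pearson value of all names is open to such extremes, so the rank values are the ones to compare. The Spearman rho of the release genes with LacZ was -0.12 for HDAC4 wt and 0.02 for HDAC4 3SA. Over all names it was 0.20 and 0.26. Genes are not independent replicates, and all genes of a vector share its mice and libraries. The SNAREs of release together with all synaptotagmins, complexins, Munc13, RIM, Rab3, synapsin and SV2 genes made up 39 genes, called the release family genes here. They were grouped by family, so Syt11, Syt4 and Rab3d, which are known for other steps or cells, are among them. Of these 39, 20 were lower after CFA under LacZ, 29 under HDAC4 wt and 36 under HDAC4 3SA, with medians of -0.01, -0.15 and -0.26. Over all names 46.3%, 48.6% and 47.5% were lower in the same order. Of the 17 remaining genes, which are the other plasma membrane SNAREs, the trafficking SNAREs and Snap91, 7, 9 and 6 were lower (beside the same shares of all names), with medians of 0.00, 0.00 and 0.03. Snap91 is no SNARE but a clathrin adaptor gene of the terminal, and without it the medians of the 16 SNAREs were 0.01, 0.00 and 0.06.

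**Figure D3:**
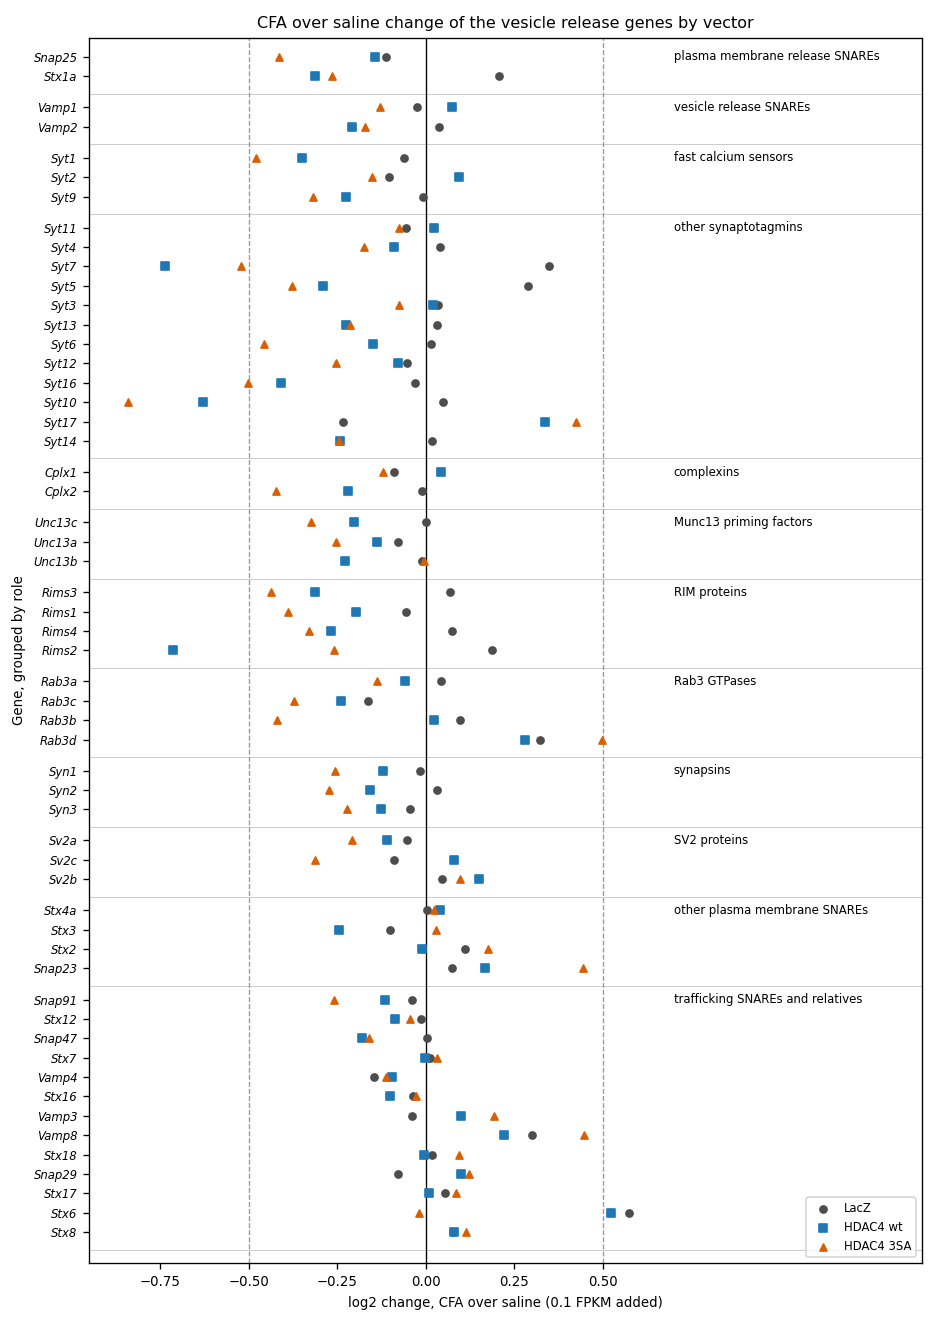
log2 change of CFA over saline (x axis) of each of 55 release genes, grouped by role (y axis), with 1 point per vector. The dashed lines mark 0.5 in both directions. Points of HDAC4 3SA mice lie left of 0 for all plotted release family genes but Sv2b, Rab3d and Syt17, and Vamp8, Rab3d and Snap23 lie on the right under every vector.

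The plasma membrane SNAREs of release, Snap25 and the syntaxin gene Stx1a, whose product pairs with it, were lower after CFA under both HDAC4 vectors. The levels of Snap25 given above correspond to log2 changes of -0.11 under LacZ, -0.14 under HDAC4 wt and -0.41 under HDAC4 3SA. Its HDAC4 3SA value after CFA was the lowest of the 6 and its LacZ value after saline the highest. Stx1a went from 13.3 to 15.4 FPKM between saline and CFA under LacZ, from 17.4 to 14.0 under HDAC4 wt and from 15.1 to 12.6 under HDAC4 3SA, and here the direction differed, since the log2 change was 0.21 under LacZ, -0.31 under HDAC4 wt and -0.27 under HDAC4 3SA. Snap25 was thus lower after CFA under every vector, while Stx1a was higher under LacZ and lower in the other groups.

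The vesicle SNAREs of release, Vamp1 and Vamp2, stayed well within the limit. Vamp1 stood at 408 (saline) and 400.5 FPKM (CFA) under LacZ, at 229.7 and 242 under HDAC4 wt, and at 292 and 267 under HDAC4 3SA. Vamp2 went from 222 to 228 FPKM between saline and CFA under LacZ, from 251 to 217 under HDAC4 wt and from 249.7 to 222 under HDAC4 3SA. The log2 changes of Vamp1 were -0.03 under LacZ, 0.07 under HDAC4 wt and -0.13 under HDAC4 3SA, and those of Vamp2 were 0.04 under LacZ, -0.21 under HDAC4 wt and -0.17 under HDAC4 3SA. Vamp2 was lower after CFA under both HDAC4 vectors and Vamp1 under HDAC4 3SA alone of these. The locus used for Vamp1 ran over chr6:125223349-125247479 (mm10, positions as the tables give them).

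Among the fast calcium sensors, which couple calcium entry to synchronous release, Syt1 and Syt9 were lower after CFA under the HDAC4 vectors and Syt2 was not lower under HDAC4 wt. Syt1 stood at 86.2 (saline) and 82.7 FPKM (CFA) under LacZ, at 90.8 and 71.3 under HDAC4 wt, and at 84.6 and 60.7 under HDAC4 3SA. Syt2 went from 106 to 98.7 FPKM between saline and CFA under LacZ, from 56.2 to 59.95 under HDAC4 wt and from 69.8 to 62.7 under HDAC4 3SA. Syt9 stood at 6.64 (saline) and 6.60 FPKM (CFA) under LacZ, at 7.14 and 6.09 under HDAC4 wt, and at 6.31 and 5.04 under HDAC4 3SA. In HDAC4 3SA mice after CFA, Syt1 and Syt9 were at the lowest of their 6 values. The Syt1 log2 change was -0.06 under LacZ, -0.35 under HDAC4 wt and -0.48 under HDAC4 3SA. For Syt2 it was -0.10 under LacZ, 0.09 under HDAC4 wt and -0.15 under HDAC4 3SA, and for Syt9 -0.01 under LacZ, -0.22 under HDAC4 wt and -0.32 under HDAC4 3SA. In HDAC4 3SA mice Syt1 came close to the limit of 0.5 without passing it.

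The other synaptotagmins held most of the genes that fell. Of the 12 measured, the number lower after CFA was 4 under LacZ (beside 46.3% of all names), 9 under HDAC4 wt (beside 48.6%) and 11 under HDAC4 3SA (beside 47.5%). The medians were 0.02 under LacZ, -0.19 under HDAC4 wt and -0.25 under HDAC4 3SA. Syt7, a slow, high affinity calcium sensor of asynchronous release and vesicle replenishment, stood at 29.2 and 37.2 FPKM under LacZ after saline and CFA, 43.2 and 25.9 under HDAC4 wt, and 38.3 and 26.7 under HDAC4 3SA. Its log2 change was 0.35 under LacZ, -0.74 under HDAC4 wt and -0.52 under HDAC4 3SA, so it fell under both HDAC4 vectors and was higher, without passing the limit, under LacZ. The tables held a second locus named Syt7 over the same span at 34.9 and 33.6 FPKM under LacZ after saline and CFA, 26.3 and 24.6 under HDAC4 wt, and 26.6 and 22.8 under HDAC4 3SA, and there the log2 changes were -0.06 under LacZ, -0.10 under HDAC4 wt and -0.22 under HDAC4 3SA, with no fall past the limit. With all loci of the name summed, the log2 change was 0.14 under LacZ, -0.44 under HDAC4 wt and -0.38 under HDAC4 3SA, short of the limit. How the reads of overlapping loci were divided was not tested. The strand of a locus was not given. Identifiers appear to run along each strand of a chromosome in turn. By that order some loci of a name appear to lie on the opposite strand to the locus used, so a sum over loci may mix strands.

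Syt10, a calcium sensor known for the exocytosis of growth factor vesicles, showed the lowest log2 change of all release genes under HDAC4 3SA. Syt10 went from 5.31 to 5.50 FPKM between saline and CFA under LacZ, from 7.24 to 4.65 under HDAC4 wt and from 6.30 to 3.47 under HDAC4 3SA. Its log2 change was 0.05 under LacZ, -0.63 under HDAC4 wt and -0.84 under HDAC4 3SA. A second locus of Syt10 gave -0.04 under LacZ, 0.13 under HDAC4 wt and -0.26 under HDAC4 3SA, and the sum of both 0.01 under LacZ, -0.34 under HDAC4 wt and -0.63 under HDAC4 3SA. The fall past the limit thus held for the sum under HDAC4 3SA alone, though the second locus appears to lie on the opposite strand to the locus used. Syt16 stood at 8.29 (saline) and 8.11 FPKM (CFA) under LacZ, at 10.1 and 7.61 under HDAC4 wt, and at 9.11 and 6.41 under HDAC4 3SA, and the log2 change of this calcium independent member was -0.03 under LacZ, -0.41 under HDAC4 wt and -0.50 under HDAC4 3SA, which just passes the limit under HDAC4 3SA. Its next locus, at a lower level, gave -0.08 under LacZ, -0.70 under HDAC4 wt and -0.59 under HDAC4 3SA, and the sum of all its loci gave -0.05 under LacZ, -0.51 under HDAC4 wt and -0.47 under HDAC4 3SA.

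The abundant members of this group, Syt11, which does not bind calcium and acts in endocytosis, and Syt4, a regulator of dense core vesicles, stayed close to their saline levels. Syt11 went from 217 to 209 FPKM between saline and CFA under LacZ, from 188 to 191 under HDAC4 wt and from 196 to 186 under HDAC4 3SA. Syt4 stood at 58.5 (saline) and 60.1 FPKM (CFA) under LacZ, at 62.3 and 58.5 under HDAC4 wt, and at 64.0 and 56.7 under HDAC4 3SA. The log2 changes lay between -0.17 and 0.04 for Syt4 and between -0.07 and 0.02 for Syt11. Syt17, by contrast, was higher after CFA under the HDAC4 vectors. Syt17 went from 2.40 to 2.03 FPKM between saline and CFA under LacZ, from 2.60 to 3.31 under HDAC4 wt and from 2.89 to 3.91 under HDAC4 3SA, which are log2 changes of -0.23 under LacZ, 0.34 under HDAC4 wt and 0.43 under HDAC4 3SA. Among synaptotagmins of at least 1 FPKM, Syt17 was the only one with a higher value after CFA under HDAC4 3SA.

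Complexins clamp and assist the SNARE complex. Cplx1 stood at 389 (saline) and 366 FPKM (CFA) under LacZ, at 226 and 233 under HDAC4 wt, and at 279 and 256 under HDAC4 3SA. Cplx2 went from 48.2 to 47.8 FPKM between saline and CFA under LacZ, from 40.9 to 35.1 under HDAC4 wt and from 41.7 to 31.1 under HDAC4 3SA. Cplx2 was lower after CFA under both HDAC4 vectors, while Cplx1 was a little higher under HDAC4 wt and lower elsewhere. The log2 changes were -0.09 under LacZ, 0.04 under HDAC4 wt and -0.12 under HDAC4 3SA for Cplx1 and -0.01 under LacZ, -0.22 under HDAC4 wt and -0.42 under HDAC4 3SA for Cplx2.

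Munc13 proteins open syntaxin for SNARE assembly, and all 3 genes were lower after CFA in HDAC4 wt and HDAC4 3SA mice. Unc13c stood at 24.1 (saline) and 24.1 FPKM (CFA) under LacZ, at 20.5 and 17.8 under HDAC4 wt, and at 21.0 and 16.8 under HDAC4 3SA. Unc13a went from 22.0 to 20.8 FPKM between saline and CFA under LacZ, from 17.8 to 16.2 under HDAC4 wt and from 19.3 to 16.2 under HDAC4 3SA. Unc13b stood at 4.47 (saline) and 4.44 FPKM (CFA) under LacZ, at 5.44 and 4.62 under HDAC4 wt, and at 4.52 and 4.50 under HDAC4 3SA. At the loci used, the largest of these differences were seen under HDAC4 3SA, where the log2 change was -0.32 for Unc13c and -0.25 for Unc13a. Unc13b was the exception there at -0.01, and under LacZ all 3 lay between -0.08 and 0.00. With loci summed, Unc13b gave 0.07 under LacZ, -0.46 under HDAC4 wt and -0.01 under HDAC4 3SA, and Unc13c -0.09 under LacZ, -0.17 under HDAC4 wt and -0.28 under HDAC4 3SA.

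RIM proteins are active zone scaffolds that tether calcium channels and vesicles, and at the loci used all 4 genes were lower after CFA under both HDAC4 vectors, whereas 3 of the 4 were higher under LacZ. Rims3 went from 42.7 to 44.8 FPKM between saline and CFA under LacZ, from 42.6 to 34.3 under HDAC4 wt and from 43.9 to 32.4 under HDAC4 3SA. Rims2 stood at 6.85 (saline) and 7.82 FPKM (CFA) under LacZ, at 11.4 and 6.89 under HDAC4 wt, and at 10.2 and 8.51 under HDAC4 3SA. The log2 change of Rims3 was 0.07 under LacZ, -0.31 under HDAC4 wt and -0.44 under HDAC4 3SA, and that of Rims2 0.19 under LacZ, -0.71 under HDAC4 wt and -0.26 under HDAC4 3SA. Rims2 fell past the limit under HDAC4 wt. Its second locus, over the same span, gave -0.04 under LacZ, -0.29 under HDAC4 wt and -0.36 under HDAC4 3SA, and the sum of all its loci gave 0.05 under LacZ, -0.39 under HDAC4 wt and -0.26 under HDAC4 3SA, short of the limit. Rims1 was read from loci at differing places, at chr1:22285895-22432848 in the LacZ and HDAC4 wt tables and at chr1:22468102-22806274 in the HDAC4 3SA table, so its levels of 11.6 and 11.2 FPKM under LacZ after saline and CFA, 9.55 and 8.33 under HDAC4 wt, and 17.2 and 13.1 under HDAC4 3SA are not comparable between vectors. Within a vector its log2 changes were -0.05 under LacZ, -0.20 under HDAC4 wt and -0.39 under HDAC4 3SA, and the sum of its loci gave 0.00 under LacZ, -0.03 under HDAC4 wt and -0.34 under HDAC4 3SA. For Rims4 the log2 change was 0.07 under LacZ, -0.27 under HDAC4 wt and -0.33 under HDAC4 3SA, a second locus gave 0.40 under LacZ, 0.45 under HDAC4 wt and 0.15 under HDAC4 3SA, and the sum 0.22 under LacZ, -0.01 under HDAC4 wt and -0.13 under HDAC4 3SA. The sums of Rims1 and Rims4 under HDAC4 wt were thus close to 0. By their identifiers the second loci of both, and the lowest loci of Rims2, appear to lie on the opposite strand to the locus used. These sums may mix strands, and they do not show that the lower values at the loci used are absent.

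Of the Rab3 GTPases, which attach to vesicles and bind RIM, the abundant ones were lower after CFA under HDAC4 3SA and Rab3d was higher everywhere. Rab3a stood at 336 (saline) and 347 FPKM (CFA) under LacZ, at 260.2 and 250.1 under HDAC4 wt, and at 291 and 264 under HDAC4 3SA. Rab3c went from 62.2 to 55.5 FPKM between saline and CFA under LacZ, from 53.3 to 45.1 under HDAC4 wt and from 52.6 to 40.7 under HDAC4 3SA. Rab3d stood at 1.61 (saline) and 2.04 FPKM (CFA) under LacZ, at 2.76 and 3.37 under HDAC4 wt, and at 2.68 and 3.82 under HDAC4 3SA. Rab3d, the form found in secretory cells outside the nervous system, had log2 changes of 0.32 under LacZ, 0.28 under HDAC4 wt and 0.50 under HDAC4 3SA, where the last lies just inside the limit. The changes were 0.04 under LacZ, -0.06 under HDAC4 wt and -0.14 under HDAC4 3SA for Rab3a and -0.16 under LacZ, -0.24 under HDAC4 wt and -0.37 under HDAC4 3SA for Rab3c. A second locus of Rab3c, over the same span, gave 43.7 and 26.2 FPKM under LacZ after saline and CFA, 10.7 and 28.7 under HDAC4 wt, and 24.4 and 22.4 under HDAC4 3SA, with log2 changes of -0.74 under LacZ, 1.42 under HDAC4 wt and -0.12 under HDAC4 3SA. The sum of both loci gave -0.37 under LacZ, 0.21 under HDAC4 wt and -0.29 under HDAC4 3SA. By its identifier the second locus appears to lie on the opposite strand to the locus used. The sum may thus mix strands, and its higher value after CFA under HDAC4 wt need not be that of the Rab3c transcript.

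Synapsins tether vesicles in the reserve pool, and their 3 genes gave near equal log2 changes. Syn1 stood at 151 (saline) and 149 FPKM (CFA) under LacZ, at 109 and 100.4 under HDAC4 wt, and at 116 and 97.2 under HDAC4 3SA. Syn2 went from 98.6 to 101 FPKM between saline and CFA under LacZ, from 84.6 to 75.9 under HDAC4 wt and from 85.2 to 70.5 under HDAC4 3SA. Syn3 stood at 11.6 (saline) and 11.3 FPKM (CFA) under LacZ, at 8.12 and 7.44 under HDAC4 wt, and at 8.74 and 7.49 under HDAC4 3SA. In HDAC4 3SA mice all 3 were lower after CFA, with log2 changes of -0.26, -0.27 and -0.22, against -0.12, -0.16 and -0.12 under HDAC4 wt and -0.02, 0.03 and -0.04 under LacZ. SV2 proteins are vesicle membrane proteins, and SV2A binds the antiepileptic levetiracetam. Sv2a went from 151 to 146 FPKM between saline and CFA under LacZ, from 126 to 117 under HDAC4 wt and from 133 to 115 under HDAC4 3SA. Sv2c stood at 50.7 (saline) and 47.7 FPKM (CFA) under LacZ, at 29.0 and 30.7 under HDAC4 wt, and at 33.4 and 26.9 under HDAC4 3SA. Sv2b went from 24.5 to 25.2 FPKM between saline and CFA under LacZ, from 14.5 to 16.1 under HDAC4 wt and from 17.6 to 18.8 under HDAC4 3SA. Sv2a was lower after CFA under each vector, at -0.05 under LacZ, -0.11 under HDAC4 wt and -0.21 under HDAC4 3SA. Sv2c was lower in all but HDAC4 wt mice, at -0.09 under LacZ, 0.08 under HDAC4 wt and -0.31 under HDAC4 3SA, while Sv2b was higher after CFA under every vector, at 0.05 under LacZ, 0.15 under HDAC4 wt and 0.10 under HDAC4 3SA.

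The SNAREs of these last roles had the medians near 0 given above. Stx4a, which serves fusion at the plasma membrane of many cell types, showed almost the same level throughout: 14.0 and 14.1 FPKM under LacZ after saline and CFA, 14.0 and 14.4 under HDAC4 wt, and 14.0 and 14.2 under HDAC4 3SA. Stx3 stood at 11.7 (saline) and 10.9 FPKM (CFA) under LacZ, at 14.0 and 11.8 under HDAC4 wt, and at 11.95 and 12.2 under HDAC4 3SA. Snap23 went from 4.36 to 4.59 FPKM between saline and CFA under LacZ, from 7.51 to 8.45 under HDAC4 wt and from 6.32 to 8.64 under HDAC4 3SA. Snap23, the relative of Snap25 in non-neuronal cells, had log2 changes of 0.07 under LacZ, 0.17 under HDAC4 wt and 0.44 under HDAC4 3SA, and Stx3 of -0.10 under LacZ, -0.25 under HDAC4 wt and 0.03 under HDAC4 3SA. Vamp8, a SNARE of late endosomes and of secretion in glia and blood cells, was with Rab3d the only release gene past 0.2 in the same direction under all vectors. Vamp8 stood at 11.1 (saline) and 13.7 FPKM (CFA) under LacZ, at 23.7 and 27.6 under HDAC4 wt, and at 19.0 and 26.0 under HDAC4 3SA. The Vamp8 log2 changes were 0.30 under LacZ, 0.22 under HDAC4 wt and 0.45 under HDAC4 3SA.

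Most of the remaining trafficking genes lay near their saline levels. Snap91 went from 91.5 to 89.1 FPKM between saline and CFA under LacZ, from 69.2 to 63.8 under HDAC4 wt and from 74.0 to 61.8 under HDAC4 3SA. Stx12 stood at 49.2 (saline) and 48.7 FPKM (CFA) under LacZ, at 50.03 and 47.1 under HDAC4 wt, and at 50.2 and 48.7 under HDAC4 3SA. Snap91, a member by its name, which codes for the clathrin adaptor AP180 of the nerve terminal, had log2 changes of -0.04 under LacZ, -0.12 under HDAC4 wt and -0.26 under HDAC4 3SA, and Stx12, a SNARE of early endosomes, of -0.01 under LacZ, -0.09 under HDAC4 wt and -0.04 under HDAC4 3SA. Snap91 was lower by more after CFA under the HDAC4 vectors than under LacZ, and Stx12 stayed within 0.1 of 0. Vamp4 went from 43.2 to 39.1 FPKM between saline and CFA under LacZ, from 37.7 to 35.3 under HDAC4 wt and from 38.0 to 35.2 under HDAC4 3SA. Stx8 stood at 4.05 (saline) and 4.28 FPKM (CFA) under LacZ, at 4.17 and 4.41 under HDAC4 wt, and at 3.84 and 4.16 under HDAC4 3SA. Vamp4, of the trans-Golgi network, was lower after CFA under every vector, at -0.14 under LacZ, -0.09 under HDAC4 wt and -0.11 under HDAC4 3SA, and Stx8, of late endosomes, was higher, at 0.08 under LacZ, 0.08 under HDAC4 wt and 0.11 under HDAC4 3SA.

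The only rises past the limit were those of Stx6, a SNARE of the Golgi, and they rest on very low levels. Stx6 went from 0.331 to 0.542 FPKM under LacZ and from 0.382 to 0.593 FPKM under HDAC4 wt, and stood at 14.1 and 13.9 FPKM under HDAC4 3SA. The log2 changes were 0.58 under LacZ, 0.52 under HDAC4 wt and -0.02 under HDAC4 3SA. With loci summed the LacZ value was 0.33, and with 1 FPKM added both rises were 0.21, so that these were no longer past the limit. The row under this identifier lay at chr1:155158714-155206477 in the LacZ and HDAC4 wt tables and at chr1:155207185-155207566 in the HDAC4 3SA table, positions as the tables give them. The second place overlaps the last exon of an annotated Stx6 transcript (chr1:155207222-155208256, mm10) with 345 of its 381 bases. In the HDAC4 3SA table the first place carried another identifier at 0.160 and 0.207 FPKM. Stx6 therefore reached the 1 FPKM minimum through the HDAC4 3SA table alone, and its values under different vectors are not comparable.

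Between vectors, levels came from separate normalizations, so the following saline levels are set side by side as a description, over the 54 genes with a common place. A group of release genes lay lower in HDAC4 wt saline mice than in LacZ saline mice. Past a log2 difference of -0.5 were 10 of 54 genes (18.5%, beside 4.68% of all names), and past 0.5 were 5 (9.26%, beside 14.4%). In HDAC4 3SA saline mice 3 genes were past -0.5 (5.56%, beside 3.2%) and 4 past 0.5 (7.41%, beside 11.4%). The 10 genes included Syt2 at 0.529 times the LacZ level, Vamp1 at 0.563, Sv2c at 0.572, Cplx1 at 0.581, Sv2b at 0.594, Snap25 at 0.648 and Syn3 at 0.699. The genes with higher levels were Vamp8 at 2.13 times, Snap23 at 1.72 times, Rab3d at 1.71 times, Rims2 at 1.66 times and Syt7 at 1.48 times. Rims2 and Syt7 have several loci, and the sum of their loci was 1.20 times the LacZ level for Rims2 and 1.07 times for Syt7, short of the limit, while that of Snap23 was 1.72 times. Among the genes not past the limit at the locus used, Rab3c was at 0.858 times the LacZ level at that locus and at 0.604 times, past -0.5 on the log2 scale, with its loci summed. That sum may mix strands, as given above. In HDAC4 3SA saline mice the low genes were Syt2 at 0.657, Sv2c at 0.659 and Snap25 at 0.702 times the LacZ level, and the high ones were Vamp8 at 1.71, Rab3d at 1.66, Rims2 at 1.49 and Snap23 at 1.45 times. With loci summed these were 1.12 times for Rims2 and 1.44 times for Snap23. The medians of the 54 genes were -0.04 for HDAC4 wt and -0.06 for HDAC4 3SA, beside 0.06 and 0.05 over all names. Marker levels differed between the same saline groups. The summed level of the neuronal markers was 3074 FPKM under LacZ, 2143 under HDAC4 wt and 2502 under HDAC4 3SA, and that of the microglial markers 169, 862 and 657 FPKM in the same order. Their part in these differences was not tested.

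Ratios of related genes within a group do not depend on the normalization of a run, and several of them differed between vectors. The ratio of Vamp1 to Vamp2 was 1.83 and 1.76 under LacZ after saline and CFA, 0.916 and 1.11 under HDAC4 wt and 1.17 and 1.20 under HDAC4 3SA. Vamp1, which prevails in large and fast firing neurons, had a higher ratio to Vamp2 in both LacZ groups than in any HDAC4 group, and lay below Vamp2 under HDAC4 wt after saline. The ratio of Syt2 to Syt1 was 1.23 and 1.19 under LacZ after saline and CFA, 0.618 and 0.841 under HDAC4 wt and 0.825 and 1.03 under HDAC4 3SA, and Syt2 exceeded Syt1 in both LacZ groups but in only 1 of the 4 HDAC4 groups. Under both HDAC4 vectors these ratios were higher after CFA than after saline, and under LacZ they were slightly lower. The ratio of Cplx1 to Cplx2 was also higher after CFA under the HDAC4 vectors, at 8.08 and 7.65 under LacZ after saline and CFA, 5.52 and 6.63 under HDAC4 wt and 6.67 and 8.23 under HDAC4 3SA. The ratio of Snap25 to Snap23 was 281 and 247 under LacZ after saline and CFA, 106 and 85.1 under HDAC4 wt and 136 and 74.8 under HDAC4 3SA, and that of Vamp2 to Vamp8 was 20.00 and 16.7 under LacZ after saline and CFA, 10.6 and 7.85 under HDAC4 wt and 13.1 and 8.54 under HDAC4 3SA. Both ratios of a neuronal gene to its widely expressed relative were highest in LacZ saline mice and lower after CFA under each vector.

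**Figure D4:**
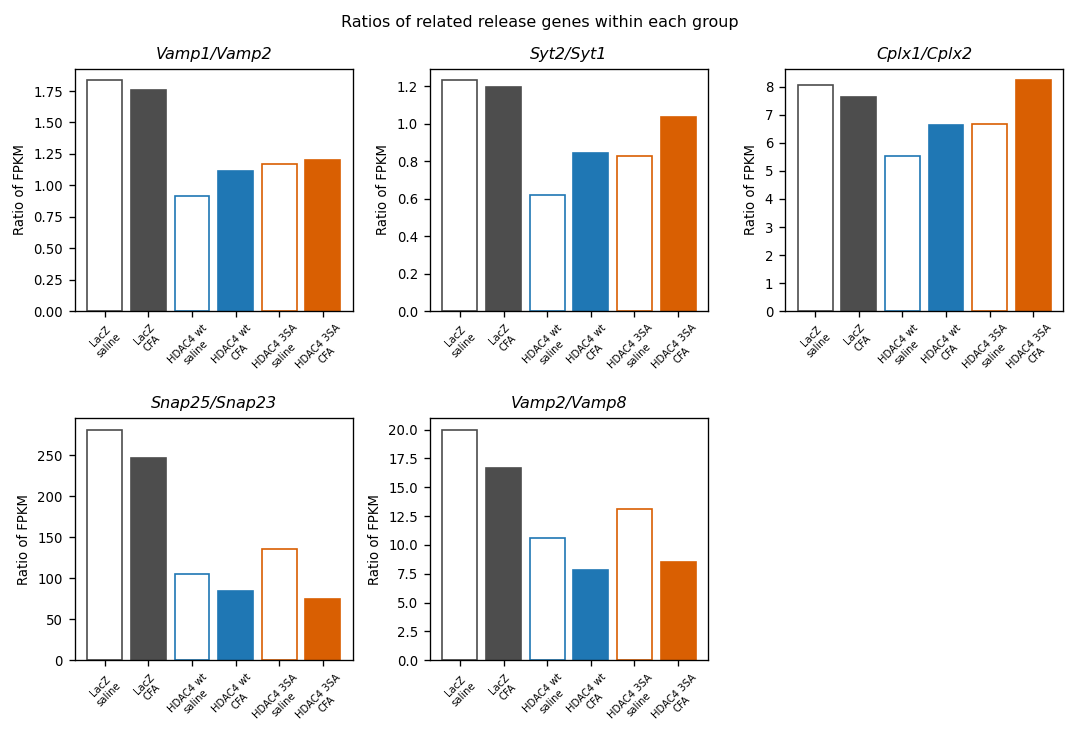
Ratio of the FPKM of a pair of related release genes within each of the 6 groups (bars from 0, open for saline and filled for CFA, 1 panel per pair). For Vamp1 to Vamp2 the LacZ bars are the highest at 1.83 and 1.76, and for Snap25 to Snap23 the bar after CFA is below the bar after saline under each vector.

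The sequences just before the start of 3 of these genes are shown because the genes differ in direction under HDAC4 wt: Syn1 was lower after CFA there and Vamp1 and Syt2 were not. The log2 changes were small, at -0.12 for Syn1, 0.07 for Vamp1 and 0.09 for Syt2, all inside the limit of 0.2. All 3 were lower after CFA under HDAC4 3SA, and all 3 lay below the LacZ level in both HDAC4 saline groups. HDAC4 does not bind DNA itself and is recruited by factors such as MEF2. RefSeq promoter windows of 300 bases (250 before and 50 from the start, GRCm38.p6) were matched by symbol for 46 of the 59 genes, in 59 windows. The bases before the annotated start are printed on the gene's strand, for Syn1 at chrX:20920919-20921168 (minus strand), Vamp1 at chr6:125215331-125215580 (plus strand) and Syt2 at chr1:134646362-134646611 (plus strand, the first of 2 windows). The Vamp1 locus of the tables begins downstream of this window. Capitals mark letters that match TGACGTCA (the cAMP response element), CCAAT (the CCAAT box) or GGGCGG (the GC box) on either strand.
Syn1: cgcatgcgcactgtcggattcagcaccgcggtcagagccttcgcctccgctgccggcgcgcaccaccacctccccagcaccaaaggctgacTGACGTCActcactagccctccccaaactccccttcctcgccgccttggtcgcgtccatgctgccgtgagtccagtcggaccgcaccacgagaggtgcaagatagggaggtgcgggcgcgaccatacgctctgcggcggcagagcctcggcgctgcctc
Vamp1: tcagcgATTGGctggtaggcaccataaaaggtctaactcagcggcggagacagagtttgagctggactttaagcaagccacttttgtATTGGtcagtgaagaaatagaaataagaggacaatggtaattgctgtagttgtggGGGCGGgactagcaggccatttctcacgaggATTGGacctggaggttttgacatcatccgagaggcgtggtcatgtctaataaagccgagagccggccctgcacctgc
Syt2: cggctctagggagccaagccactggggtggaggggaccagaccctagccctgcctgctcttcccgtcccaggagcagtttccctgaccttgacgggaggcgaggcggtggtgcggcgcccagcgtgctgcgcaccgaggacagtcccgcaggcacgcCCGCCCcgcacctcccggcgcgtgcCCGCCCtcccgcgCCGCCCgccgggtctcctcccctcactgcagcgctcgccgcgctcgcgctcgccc
The cAMP response element of Syn1 began at -159 from the start and was the single match among the 59 windows, beside 1.79% of all 32851 windows. The Vamp1 stretch held 3 CCAAT boxes and 1 GC box, and the Syt2 stretch 3 GC boxes. A CCAAT box was found in 17 of the 59 windows, beside 37.4% of all windows, and a GC box in 42 of 59, beside 35.7%. The median GC content was 62.3% in the windows of the release genes and 52.7% in all windows. No window of a release gene held the MEF2 consensus, which 3.19% of all windows held, or the RE1 consensus, held by 0.0639%. The matches are descriptions of letters in these windows, not of binding.

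Genes that work with the release genes were listed as 4 groups: SNARE regulators and recycling factors, active zone scaffolds, vesicle membrane proteins with transmitter transporters, and endocytosis factors. Of 77 listed, 66 had a mean of at least 1 FPKM. After CFA, 40 of the 66 were lower under LacZ (60.6%, beside 46.3% of all names), 48 under HDAC4 wt (72.7%, beside 48.6%) and 49 under HDAC4 3SA (74.2%, beside 47.5%), with medians of -0.03, -0.08 and -0.12. Below -0.2 were 1, 11 and 25 genes (1.52%, 16.7% and 37.9%, beside 5.72%, 10.6% and 14.9%), and above 0.2 were 2, 4 and 5 (3.03%, 6.06% and 7.58%, beside 13.0%, 15.0% and 21.2%). Past 0.5 were 1, 1 and 2 genes (1.52%, 1.52% and 3.03%, beside 3.61%, 4.21% and 7.92%), and past -0.5 were 0, 1 and 1 (1.52% under each HDAC4 vector, beside 2.42% and 2.89%). Slc18a3, the vesicular acetylcholine transporter, rose under HDAC4 wt (from 4.25 to 10.9 FPKM, log2 change 1.34) and under HDAC4 3SA (from 7.30 to 17.4 FPKM, 1.25). Erc1, an active zone scaffold, rose under LacZ (0.64) and fell under HDAC4 wt (-0.85). In HDAC4 3SA mice Stxbp2, a Munc18 form of non-neuronal secretion, rose (0.71), and Synpr, a synaptophysin relative on vesicles, fell (-0.58). In the same order of vectors, the medians were -0.03, -0.08 and -0.22 for the 17 measured regulators of SNARE assembly and recycling, -0.07, -0.11 and -0.15 for 16 active zone scaffolds, 0.00, -0.10 and -0.13 for 13 vesicle membrane proteins and transporters and -0.03, -0.02 and -0.06 for 20 endocytosis genes.

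Cell type markers also differed between saline and CFA, and their values are given beside the release genes. Medians cover the markers measured at 1 FPKM or more, and sums all markers of a list found in the tables. Of 15 neuronal markers 13 were measured, with medians of 0.06 under LacZ, -0.02 under HDAC4 wt and -0.11 under HDAC4 3SA. Their summed level went from 3074 to 3189.8 FPKM under LacZ, from 2143 to 2216 under HDAC4 wt and from 2502 to 2463 under HDAC4 3SA, while the summed level of the 39 release family genes went from 4175 to 4043, from 3096 to 2875 and from 3374 to 2836 FPKM. The neuronal list was not uniform, since the log2 change of Rbfox3, a nuclear protein of most neurons, was -0.23 under HDAC4 wt and -0.29 under HDAC4 3SA, and that of Nefh, a neurofilament of large neurons, was 0.67 and 0.36. Motor neuron markers, 4 of 7 measured, had medians of 0.33 under LacZ, 1.09 under HDAC4 wt and 1.04 under HDAC4 3SA, and their sum went from 57.4 to 68.6 FPKM under LacZ, from 31.8 to 58.0 under HDAC4 wt and from 48.1 to 97.9 under HDAC4 3SA. Microglial markers, 9 of 9 measured, had medians of 0.13 under LacZ, 0.31 under HDAC4 wt and 0.75 under HDAC4 3SA, with a sum that went from 169 to 191 FPKM under LacZ, from 862 to 1088 under HDAC4 wt and from 657 to 1196 under HDAC4 3SA. Astrocyte markers, 7 of 8 measured, had medians of 0.02 under LacZ, 0.19 under HDAC4 wt and 0.12 under HDAC4 3SA, with a sum that went from 889 to 900.0 FPKM under LacZ, from 1320.5 to 1591 under HDAC4 wt and from 1317 to 1647 under HDAC4 3SA. The medians were 0.00 under LacZ, 0.19 under HDAC4 wt and 0.13 under HDAC4 3SA for 8 oligodendrocyte markers, 0.59 under LacZ, -0.03 under HDAC4 wt and -0.53 under HDAC4 3SA for 7 Schwann cell markers, 3.16 under LacZ, -0.56 under HDAC4 wt and -0.75 under HDAC4 3SA for 4 neutrophil markers, 1.04 under LacZ, -1.004 under HDAC4 wt and -0.28 under HDAC4 3SA for 6 muscle markers, -0.75 under LacZ, -0.10 under HDAC4 wt and 0.08 under HDAC4 3SA for 3 ependymal markers and 0.01 under LacZ, 0.68 under HDAC4 wt and -0.09 under HDAC4 3SA for 2 dorsal root ganglion markers. Of all listed markers, Myh1 was listed at 0 in an HDAC4 wt group and Trpv1 in an HDAC4 3SA group, and none of the rest was. The part of these markers in the release gene values was not tested.

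**Figure D5:**
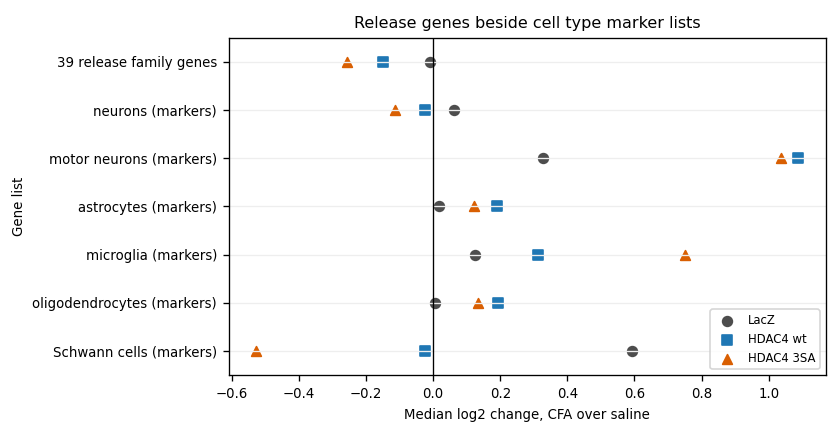
Median log2 change of CFA over saline (x axis) of the 39 release family genes and of 6 cell type marker lists (y axis), with 1 point per vector. The release family genes lie at -0.01, -0.15 and -0.26 in LacZ, HDAC4 wt and HDAC4 3SA mice, and microglial and motor neuron markers lie on the right of 0 under every vector.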

How the data were processed

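Dorsal spinal cord RNA of 18 mice, 3 in each of 6 groups, was sequenced from strand-specific poly-A libraries with single-end reads. Per the methods of the study and the submitters' processing notes, the authors aligned reads to mm10 (GRCm38) with Bowtie and TopHat, assembled them with Cufflinks and Cuffmerge against Ensembl, and compared CFA with saline in 1 Cuffdiff run per vector. The deposited FPKM values are 1 estimate per group and locus over its 3 mice, normalized within the run, in 3 tables of 34579 loci. Read depth per mouse is unknown from these tables. The tables also hold the authors' own comparisons (fold changes, test statistics, p and q values and calls), which were not used.

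Rows were joined by identifier, and 19 loci without an estimate in a table were left out. Changes were log2 of CFA over saline with 0.1 FPKM added, for names with a mean of at least 1 FPKM over the 6 groups, computed with Python 3.11.15 and pandas 2.3.3. The calculation was tested on simulated data with known changes. The named genes were, within each role, the 2 with the highest and the 1 with the lowest mean, those past 0.5 in a vector, the 3 largest changes in each direction per vector, and those beyond 0.2 one way in all vectors. The genes named for saline levels across vectors and in the ratios were chosen after their values were seen. The release genes, the lists of partner genes and of cell type markers, and the roles were chosen with earlier results of these data known. Alternatives were another added value, other minimum levels, centring, summed loci and a smaller limit. Sequences are from RefSeq (GRCm38.p6). Exons are from GENCODE (GRCm38). For 1 release gene, which the counts and medians include, values are not reported here.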

Additional observations from a re-analysis of the deposited data

How the results depend on the processing

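The medians of the release genes stayed within 0.05 of the values given under every alternative run, between -0.00 and 0.01 under LacZ, between -0.11 and -0.08 under HDAC4 wt and between -0.22 and -0.17 under HDAC4 3SA. Counts past the limit of 0.5 were small and depended on the setting, and the setting with loci summed may mix strands. The 1 rise under LacZ became 0 with 1 FPKM added, 2 with no minimum level, 0 with a minimum of 5 FPKM, 0 with the loci of a name summed and 6 at a limit of 0.2. The 0 falls under LacZ became 1 with no minimum level and 1 at a limit of 0.2. The 1 rise under HDAC4 wt became 0 with 1 FPKM added, 0 with a minimum of 5 FPKM and 4 at a limit of 0.2, and the 3 falls became 1 (Syt16) with loci summed and 18 at a limit of 0.2. The 0 rises under HDAC4 3SA became 1 with no FPKM added and 4 at a limit of 0.2, and the 3 falls became 2 with 1 FPKM added (without Syt16), 1 (Syt10) with loci summed and 28 at a limit of 0.2. In alternatives chosen after seeing the data, leaving out Stx6 and Rims1 gave 0 rises under LacZ and 0 under HDAC4 wt. Keeping only genes with 1 locus gave 0 rises under LacZ and 0 under HDAC4 wt, and 0 falls under HDAC4 wt and 0 under HDAC4 3SA, since all genes that passed the limit have several loci. Of 123 log2 changes of named genes, 118 moved by less than 0.1 with 1 FPKM added, 111 with loci summed and all 123 with centring. No paired analysis was possible because the tables hold 1 pooled value per group, so the replicate block and leaving out each mouse in turn were not run. Without values per mouse, and with the authors' own tests not used, no difference here was set against the spread between animals. Single genes at low FPKM are the least certain.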

Other observations

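The 3 release genes under 1 FPKM had these values. Cplx3, a complexin of ribbon synapses, lay at 0.299 and 0.121 FPKM under LacZ after saline and CFA, at 0.202 and 0.295 under HDAC4 wt and at 0.244 and 0.293 under HDAC4 3SA. Stx11, a SNARE of immune cells, lay at 0.183 and 0.413 FPKM under LacZ, 0.860 and 0.937 under HDAC4 wt and 0.689 and 0.925 under HDAC4 3SA, each higher after CFA. With its 2 loci summed, the log2 change of Stx11 was 0.85 under LacZ, -0.03 under HDAC4 wt and 0.61 under HDAC4 3SA. Syt15 lay between 0.535 and 0.770 FPKM in all groups.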
